A study of Mus musculus with 12 samples.

Results

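Lungs of wild-type C57BL/6J mice given paraquat were compared with lungs of mice given saline, 1 week after the dose. The PQ 1w mice had received 1 intratracheal dose of paraquat dissolved in saline, and the control 1w mice had received saline. The age label is 8 weeks in both groups and no transgene is named. The comparison uses 6 of the series' 12 libraries, 3 in each group, and all 20774 genes of the count tables. The labels read "1w" and "4w", taken here as 1 and 4 weeks, and the 4-week groups are not compared but add to the estimate of spread. Among those, paraquat replicate 3 stood apart from its group, and 8264 genes passed without it in place of 7772. RNA came from homogenised whole lung, was kept when its integrity number was above 7 and its 28S/18S ratio above 1, and was sequenced on a BGISEQ 500. No label says that the 3 libraries of a group are 3 mice, so the p-values measure the spread between libraries, which may be technical. Expression is given as CPM (the count of a gene scaled to a fixed library total) after TMM scaling, which corrects for differences in library composition. CPM is not divided by transcript length, so levels are compared between libraries and not between genes. Where 3 values are printed together, they are replicates 1, 2 and 3 of the group. The groups did not overlap for any gene named below as risen or fallen, Ccr2 excepted.

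Paraquat is a bipyridinium herbicide that the lung concentrates because alveolar epithelial cells take it up with the system that carries polyamines. Inside the cell, NADPH-dependent flavoenzymes reduce it, oxygen reoxidises it, and each turn of this cycle makes superoxide and spends NADPH. The alveolar epithelium is injured first, inflammatory cells follow, and survivors can develop a fibrosis in which fibroblasts fill the airspace walls with collagen, fibronectin and elastic fibres. In whole tissue, fewer cells of a type and less RNA per cell cannot be told apart, so a lower marker gene below is a statement about RNA in the lung.

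About as many genes passed the test as missed it. Of 15921 genes with enough counts to test, 7772 (48.8%) passed an adjusted p of 0.05 in edgeR's quasi-likelihood test with Benjamini-Hochberg adjustment, 4129 of them higher after paraquat (25.9%) and 3643 lower (22.9%). These passing genes are called risen or fallen below. A change of at least 2-fold together with that threshold was found for 1961 genes (12.3%), 1151 higher (7.23%) and 810 lower (5.09%). The groups did not overlap for 9353 genes (58.7%). The 3 paraquat values lay wholly above the 3 saline values for 4892 genes (30.7%) and wholly below them for 4461 (28%). The median log2 difference of all tested genes was 0.0047, and a gene list below is read against these shares and this median. Each of the 6 libraries held between 17849300 and 18559809 counts. The first principal component of the 6 libraries carried 73.3% of the variance and placed the saline libraries between -47.9 and -44.3 and the paraquat libraries between 44.1 and 49.7.

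Defining lung markers were present in every library. The summed list of alveolar type 2 genes stood at 39570 to 47580 CPM after saline and 26750 to 30050 after paraquat. The list of alveolar type 1 genes stood at 12880 to 14110 and 10470 to 11860. Sftpc, a surfactant protein of alveolar type 2 cells, had 15990, 20810 and 15850 CPM after saline, and Ager, a protein of alveolar type 1 cells, had 2398, 2984 and 2632. The second component, with 10.9% of the variance, did not follow treatment: it was highest in saline replicate 1 (26.3) and paraquat replicate 2 (19.5). These libraries and paraquat replicate 3 held more RNA of heart muscle, fat and large airway than the other 3. Myh6, the atrial myosin heavy chain, measured 128, 2.16 and 28.5 CPM after saline and 13.97, 101 and 71.5 after paraquat. Bpifa1, a secreted protein of large airway epithelium, measured 242, 3.64 and 15.2 and 101, 350.1 and 268. For both genes the range within the saline group was wider than the difference between the group means. Of 18 tested heart and pulmonary vein genes 1 rose and 0 fell, and of 6 fat genes none passed. The heart gene that rose was Hspb7, a small heat shock protein of muscle, at 15.7, 5.86 and 7.30 CPM and 55.1, 37.9 and 52.1. Among libraries with at least 50 CPM of Myh6 (saline 1, paraquat 2 and 3) 4164 genes passed, and among the other 3 libraries 3716 passed. Each of these smaller fits has an arm with a single library, whose spread is assumed to be that of the other groups. Red cell transcripts were lower after paraquat. Hba-a1, an alpha globin with a near-identical copy, went from 1586, 2282 and 1375 to 764, 275 and 796 CPM (log2 -1.51 ± 0.49 SE, edgeR adjusted p = 0.022). Its call was lost in the edgeR fits without saline replicate 2 (log2 -1.27, adjusted p = 0.0754) and without paraquat replicate 2 (log2 -1.16, adjusted p = 0.0725). In all, 7 of 11 erythroid genes fell while 0 rose, and 4 fell without saline replicate 2. The summed level of the erythroid list was 3717 to 6297 CPM after saline and 791 to 2085 after paraquat. The part of heart, fat, airway and blood RNA in the results below was not tested.

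**Figure D1:**
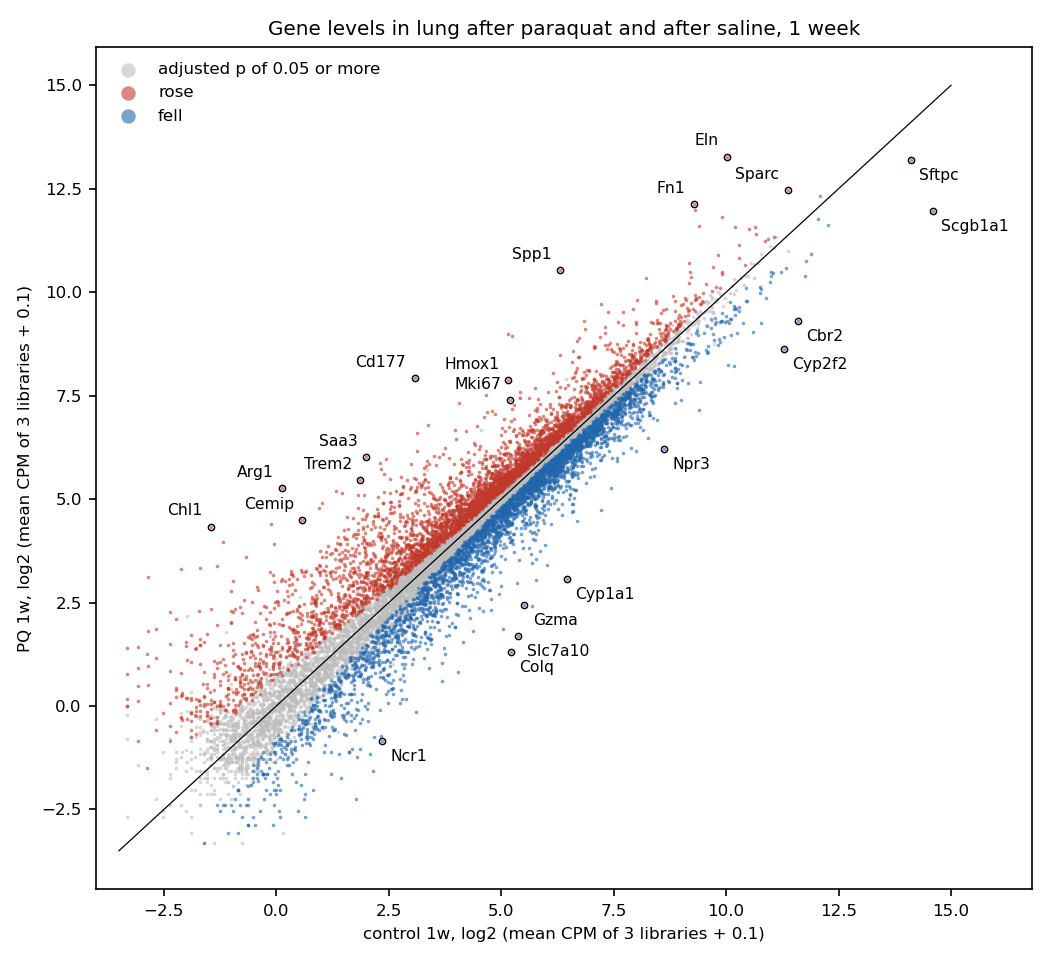
Each point is 1 of the 15921 tested genes, with log2 of its mean CPM plus 0.1 in the 3 saline libraries on the horizontal axis and in the 3 paraquat libraries on the vertical axis. Red and blue points passed the test as higher or lower, and the line marks equal levels. Eln, Fn1 and Spp1 lie above the line at high levels, and the club cell genes Scgb1a1 and Cyp2f2 lie below it.

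Among genes with a mean of at least 10 CPM over the 6 libraries and no overlap between the groups, the largest rises were in Chl1, Arg1, Cd177, H19, Spp1, Saa3, Cemip and Prg4. Arg1, the arginase of alternatively activated macrophages, went from 0.905, 0.853 and 1.23 CPM to 36.5, 45.2 and 33.2, a 38.2-fold rise (log2 5.26 ± 0.40 SE, edgeR adjusted p = 9.28e-07). Cd177, a surface glycoprotein best known on neutrophils and also made by epithelium, went from 7.87, 4.21 and 12.9 to 218, 212 and 294 (log2 4.86 ± 0.44, edgeR adjusted p = 3.71e-06). Every paraquat library lay above every saline library for both. H19, an imprinted noncoding RNA of fetal tissue, had 1.13, 0.682 and 0.668 CPM after saline and 6.71, 39.8 and 16.5 after paraquat. Saa3, an acute-phase protein of the lung, rose from 6.74, 1.54 and 3.40 to 38.3, 46.0 and 109. Cemip, which degrades hyaluronan, rose from 2.04, 0.853 and 1.28 to 24.2, 17.5 and 25.2. Prg4, the lubricant proteoglycan of joint and pleural surfaces, rose from 2.38, 1.48 and 1.89 to 28.6, 30.0 and 31.1. All 4 were higher in every paraquat library.

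Among the largest falls at that level were those of Colq, Slc7a10, Cyp1a1, Pon1, Faim2, Gzma and Cyp2f2. Cyp1a1, the dioxin-inducible cytochrome P450, fell from 92.0, 84.4 and 87.0 CPM to 15.7, 3.43 and 5.73, which is 10.6-fold (log2 -3.41 ± 0.47 SE, edgeR adjusted p = 8.99e-05). Pon1, a lactonase that travels with high-density lipoprotein, fell from 56.6, 52.3 and 45.5 to 4.79, 6.49 and 4.53. Faim2, an inhibitor of Fas-mediated cell death, fell from 29.9, 32.1 and 36.5 to 4.02, 3.65 and 2.89. Cyp2f2, the P450 that bioactivates naphthalene in club cells, fell from 2779, 2562 and 2161 to 385, 426 and 376 (log2 -2.66 ± 0.18, edgeR adjusted p = 4.99e-07).

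In absolute CPM, Eln gained more than any other gene. Eln, at chr5:134702595-134747368 of mm10, encodes tropoelastin, the core of elastic fibres, which is made mainly during lung development. It measured 868, 1215 and 1026 CPM after saline and 11660, 9862 and 8167 after paraquat, a 9.55-fold rise (log2 3.25 ± 0.22 SE, edgeR adjusted p = 4.99e-07), and the groups were far apart. Fn1, Col1a1, Sparc, Col3a1, Col1a2, Mgp and Bgn followed, all products of matrix-forming cells. Sparc, a collagen-binding secreted protein, rose from 2373, 2933 and 2642 to 5959, 5508 and 5473. Mgp, an inhibitor of calcification in vessels and cartilage, rose from 1083, 1291 and 1139 to 3082, 3130 and 2981. The largest loss was in Scgb1a1 at chr19:9083642-9087956, the club cell secretory protein. It fell from 26550, 28260 and 19760 CPM to 4890, 3524 and 3619, 6.20-fold (log2 -2.63 ± 0.24, edgeR adjusted p = 4.21e-06). Sftpc, Cbr2, Gsn, Cyp2f2, Epas1, Sftpa1 and Lyz2 completed the 8 largest losses. Epas1, the hypoxia-inducible factor of lung endothelium, fell from 3623, 3598 and 4179 to 2197, 1752 and 1886.

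**Figure D2:**
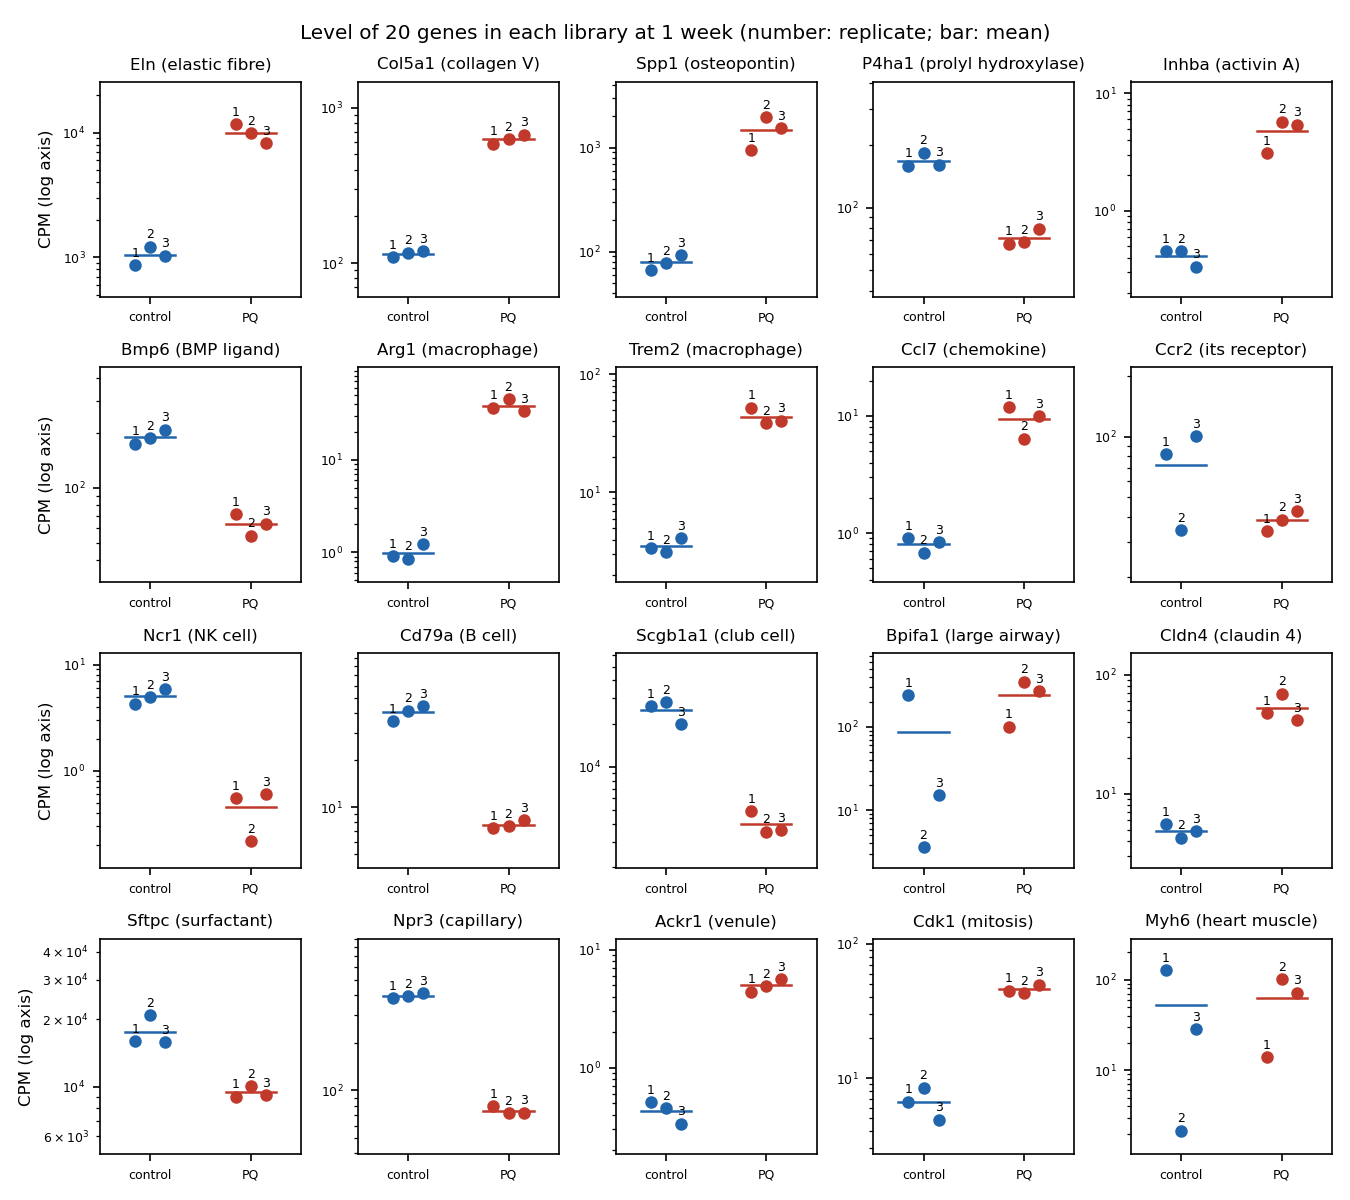
CPM of 20 genes in each of the 6 libraries on log axes, saline in blue and paraquat in red, with the replicate number beside each point and a bar at the group mean. Eln, Arg1, Ncr1, Npr3 and Cdk1 separate the groups without overlap, whereas Ccr2, Bpifa1 and Myh6 do not.

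Collagens that form fibrils rose almost as a class. Of 10 tested genes 9 rose and 1 fell, with a median log2 difference of 2.44, where 25.9% of all tested genes rose. Col5a1, which starts fibrils and limits their width, went from 109.6, 117 and 119 CPM to 588, 626 and 670.0 (log2 2.45 ± 0.094, edgeR adjusted p = 1.21e-08). Col5a3, its minor partner, went from 19.1, 21.5 and 14.8 to 75.9, 86.8 and 135. Col24a1, a fibrillar collagen of developing bone, went from 0.623, 0.455 and 0.446 to 3.30, 8.61 and 5.40. Col11a1, which is normally a cartilage collagen, was nearly absent after saline. It had 2 counts over the 3 saline libraries and 189 over the 3 paraquat libraries, a ratio of 91.7 with a 95% interval of 25.02 to 762 that covers counting error only. The exception was Col11a2, at 5.04, 6.65 and 6.29 and 3.46, 3.21 and 3.93 CPM, which fell. Among the 17 other interstitial collagens tested, 11 rose and 3 fell. Col6a3 of the beaded filaments rose from 249.5, 259.6 and 269.7 to 885, 869.9 and 953, and Col15a1 of vessel and adventitial basement zones from 23.7, 20.5 and 18.3 to 75.7, 82.1 and 85.7. Col13a1, a transmembrane collagen of alveolar fibroblasts, fell from 77.5, 81.0 and 83.3 to 58.9, 49.9 and 49.5.

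The enzymes that finish collagen did not move together. Of 29 tested, 19 rose, 4 fell and the rest missed the threshold (median log2 0.66). Lysyl oxidases, which crosslink collagen and elastin, rose: Lox from 143, 125 and 171 to 512, 461 and 466 CPM, Loxl2 from 69.7, 71.2 and 73.0 to 245, 250.3 and 297 and Loxl4 from 8.21, 6.37 and 8.08 to 26.1, 23.9 and 19.3. The catalytic subunits of prolyl 4-hydroxylase, which stabilise the triple helix, went opposite ways. P4ha3 rose from 3.28, 3.07 and 3.84 to 26.1, 44.1 and 32.7, P4ha2 measured 65.9, 71.6 and 68.6 and 68.4, 58.5 and 66.4, and P4ha1 fell from 159.5, 184 and 161 to 67.3, 68.6 and 79.2. The log2 differences were 3.33 ± 0.22 SE for P4ha3, -0.092 ± 0.087 for P4ha2 and -1.23 ± 0.12 for P4ha1. The enhancers of procollagen C-proteinase diverged as well, with Pcolce rising from 184, 215 and 190.3 to 298, 259.5 and 258 and Pcolce2 falling from 227, 257 and 282 to 88.0, 57.8 and 70.3. Serpinh1, the collagen chaperone, measured 580.1, 758 and 614 after saline and 673, 732 and 768 after paraquat and missed the threshold (edgeR adjusted p = 0.266). Plod2, which hydroxylates telopeptide lysines for fibrotic crosslinks, measured 79.3, 83.6 and 79.0 and 78.4, 86.8 and 94.8 (edgeR adjusted p = 0.49).

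Elastic fibre and matricellular genes rose more often than they fell. Of 16 elastic fibre genes 10 rose and 3 fell, beside 25.9% and 22.9% of all tested genes. Fbn2, the fibrillin of embryonic microfibrils, rose from 0.905, 1.25 and 0.78 to 4.95, 12.8 and 6.27 CPM. Fbln2 rose from 26.8, 25.8 and 30.9 to 139.7, 126 and 153, and Ltbp2, a fibrillin-binding protein, from 139, 156 and 176 to 523, 654 and 549.6. Ltbp4, which guides elastin assembly in the normal lung, fell from 919.6, 915 and 1124 to 531, 464 and 455, and Efemp1 fell from 164, 171 and 146 to 78.6, 68.1 and 85.6. Among 17 matricellular proteins, which modulate adhesion rather than bear load, 12 rose and 3 fell (median 1.15). Spp1, osteopontin, rose from 66.4, 78.0 and 93.2 to 949, 1965 and 1549 CPM, 18.8-fold (log2 4.23 ± 0.27 SE, edgeR adjusted p = 2.85e-07). Thbs4 rose from 0.226, 0.455 and 0.223 to 3.96, 17.5 and 9.49 and Thbs2 from 3.34, 2.33 and 5.57 to 24.3, 39.2 and 39.7. Cthrc1, a marker of collagen-rich fibroblasts in fibrotic lung, rose from 3.06, 3.35 and 3.01 to 11.1, 31.6 and 27.4, with paraquat replicate 1 lowest for Spp1, Thbs4, Thbs2 and Cthrc1. Postn, periostin, measured 396, 391 and 415 and 400.3, 428 and 473 and missed the threshold (edgeR adjusted p = 0.351). Tnxb and Nov fell.

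Matrix-degrading enzymes rose more often than they fell. Of 17 metalloproteinases 10 rose and 3 fell, beside 25.9% and 22.9% of all tested genes. Mmp2, a gelatinase of fibroblasts, rose from 143, 169 and 163 to 442, 597 and 502 CPM, and Mmp13, a collagenase, from 1.25, 1.42 and 0.835 to 9.68, 3.71 and 9.65. Mmp10, stromelysin 2, had 1 count after saline and 99 after paraquat, a ratio of 96.0 with a 95% counting interval of 16.84 to 3830. Mmp28, an epithelial type, fell from 43.7, 46.2 and 59.7 to 19.9, 20.8 and 22.6, and the membrane type Mmp15 fell from 214, 259 and 236 to 107, 114 and 110.1. Timp3, a matrix-bound inhibitor, stood at 1368, 1152 and 1329 and 1377, 1239 and 1297 (edgeR adjusted p = 0.85). Has2, the main hyaluronan synthase of fibroblasts, rose from 0.623, 0.228 and 0.39 to 5.67, 10.6 and 7.85. In the basement membrane, 14 of 22 genes rose and 1 fell. Lama1, the laminin chain of the embryonic lung, rose from 5.94, 7.11 and 6.74 to 28.6, 33.8 and 41.2, and Col4a1 from 1534, 1538 and 1713 to 3031, 3185 and 2867. The adult alveolar chains Col4a3, at 315, 284 and 353 and 258, 357 and 259, and Lama3, at 188, 175 and 231 and 155, 195 and 139.7, missed the threshold. Integrins, the matrix receptors, rose in 7 of 15 cases and fell in 2, beside the same shares. Itga5, the fibronectin receptor, rose from 102, 99.6 and 104 to 242, 213 and 241, and Itgb6, whose heterodimer activates latent TGF-beta on epithelium, from 49.6, 58.2 and 45.7 to 88.8, 113 and 93.8. Itga8 of alveolar fibroblasts fell from 251, 223 and 265 to 139, 125 and 149.

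TGF-beta, activins and BMPs signal through paired serine kinase receptors to SMAD proteins, and secreted antagonists tune them. Of 24 ligands and antagonists, 15 rose and 5 fell. Inhba, the activin A subunit, rose from 0.453, 0.455 and 0.334 CPM to 3.08, 5.72 and 5.40 (log2 3.50 ± 0.38, edgeR adjusted p = 1.48e-05). Its antagonist Fst, follistatin, rose from 5.49, 5.29 and 5.18 to 58.0, 67.2 and 62.8 (log2 3.56 ± 0.20, edgeR adjusted p = 1.12e-07), and the related Fstl1 from 165, 165 and 164 to 730.5, 738 and 741. The BMP antagonist Nog rose from 0.34, 0.341 and 0.668 to 1.81, 2.07 and 1.64. Tgfb2 rose from 35.4, 38.4 and 30.7 to 48.0, 58.9 and 55.6, and Tgfb3 from 57.6, 53.8 and 47.8 to 101, 104 and 89.2. Bmp6, an endothelial BMP, fell from 175, 187 and 208 to 71.6, 54.6 and 63.8 (log2 -1.58 ± 0.13, edgeR adjusted p = 1.58e-06), and Bmp4 stood at 57.0, 60.6 and 61.9 and 53.2, 59.0 and 56.7 (edgeR adjusted p = 0.364).

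Receptors and SMADs were more mixed. Of 28 genes 7 rose (4 without paraquat replicate 2) and 10 fell, beside 25.9% and 22.9% of all tested genes. Tgfbr2, the TGF-beta type II receptor, rose from 359, 339 and 383 to 628, 641 and 576. Among those that fell were 4 parts of the endothelial BMP pathway. Mutation of Bmpr2, Acvrl1 or Eng causes pulmonary hypertension or hereditary telangiectasia. Bmpr2 fell from 511, 452 and 436 to 274, 297 and 295 CPM, Acvrl1 (ALK1) from 781, 837 and 943 to 506, 402 and 461 and Eng (endoglin) from 816, 915 and 1024 to 511, 427 and 459.7. The inhibitory Smad6, a BMP target in endothelium, fell from 225, 265 and 320.0 to 122, 96.3 and 103 (log2 -1.33 ± 0.29, edgeR adjusted p = 0.00243). None of these 4 overlapped between groups. Smad3, the main TGF-beta effector, stood at 71.6, 61.1 and 73.9 and 64.7, 65.0 and 60.6 (edgeR adjusted p = 0.254).

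Wnt, Notch and growth factor genes showed an uneven pattern. Of 36 Wnt pathway genes 15 rose and 11 fell, beside 25.9% and 22.9% of all tested genes. Secreted inhibitors rose: Sfrp1 from 27.3, 26.8 and 21.6 CPM to 160.0, 209.9 and 182 and Frzb from 0.17, 0.512 and 0.223 to 2.15, 6.05 and 3.11. So did the ligands Wnt5a, from 14.2, 12.4 and 12.8 to 36.8, 37.3 and 33.2, and Wnt7a, from 8.04, 10.6 and 10.4 to 26.5, 36.7 and 26.2. Lef1, which carries beta-catenin on DNA, fell from 11.5, 11.9 and 12.6 to 4.29, 6.49 and 6.49, and the feedback inhibitor Nkd1 from 304, 339.7 and 339 to 233, 192 and 197. The hedgehog effector Gli1 rose from 8.26, 8.87 and 7.02 to 20.02, 26.2 and 19.4. Notch genes mostly fell, 10 of 16 against 1 that rose, beside 22.9% of all genes. Notch4 of endothelium fell from 251, 254 and 309 to 183, 149.5 and 164, and the riser was Heyl, a target in vascular smooth muscle, from 51.8, 59.5 and 53.5 to 126, 128 and 105.

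Among growth factor ligands 10 of 29 rose and 7 fell, beside 25.9% and 22.9% of all tested genes. Among their receptors and IGF binding proteins 5 of 22 rose and 14 fell. Ereg, epiregulin, a ligand of the EGF receptor, rose from 0.509, 0.341 and 0.167 CPM to 15.8, 14.9 and 15.4, 44.5-fold (log2 5.48 ± 0.39 SE, edgeR adjusted p = 5.70e-07). Areg, a second ligand of that receptor, rose from 8.66, 8.70 and 4.90 to 24.0, 20.8 and 20.1, and Igf1 from 28.8, 28.9 and 19.7 to 122, 154 and 134. Egfr itself fell from 39.95, 31.0 and 42.6 to 26.2, 23.1 and 23.9. Pdgfc, a fibroblast mitogen, rose from 2.04, 1.88 and 1.67 to 9.68, 16.3 and 13.7. Of the FGF receptors, Fgfr1 rose from 93.8, 88.2 and 97.7 to 183, 169 and 167 and Fgfr3 fell from 234, 259 and 293 to 130.5, 98.7 and 116. Fgf1 fell from 314, 307 and 317 to 133, 138 and 123, and Vegfa, made by alveolar epithelium for its capillaries, from 910.5, 953 and 1022 to 634, 649 and 610.4. Its receptor Kdr fell from 371, 364 and 429 to 213, 203 and 211.

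**Figure D3:**
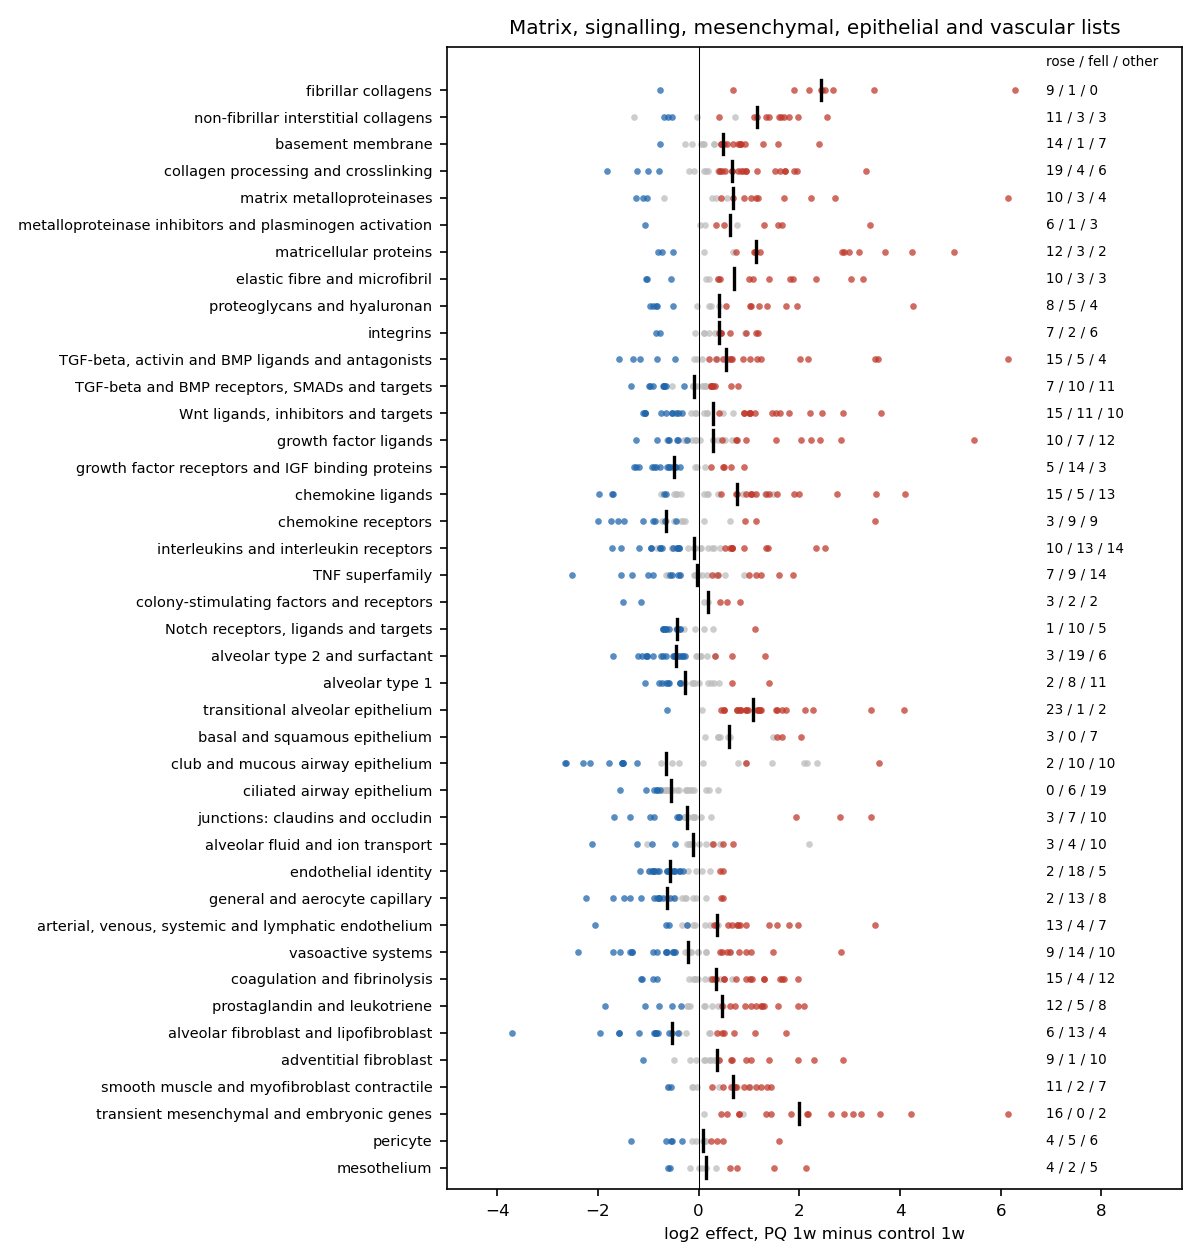
Each point is the log2 difference, paraquat minus saline, of 1 tested gene, grouped by gene list. Red points rose, blue points fell and grey points missed the threshold, the black bar is the list's median, and the numbers at the right count the 3 classes. Fibrillar collagens and transient mesenchymal genes sit to the right of 0 and endothelial and Notch genes mostly to the left.

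Lists of different fibroblast types had different counts. Of 18 genes that mark transient or embryonic mesenchyme, 16 rose and 0 fell (median log2 1.99). That list was drawn up with a rise at 1 week in these libraries known, so its count is no independent evidence of the direction. Lrrc15, a marker of activated fibroblasts, rose from 0.34, 0.171 and 0.279 CPM to 2.92, 5.67 and 6.43, and Cilp, a matrix protein of cartilage, from 4.36, 5.92 and 4.18 to 50.2, 65.0 and 60.0. Adam12 rose from 5.66, 3.87 and 6.01 to 45.3, 50.7 and 49.4, and the transcription factor Prrx1 from 11.7, 8.64 and 9.19 to 36.9, 47.5 and 46.5. Of 23 genes of resident alveolar fibroblasts and lipofibroblasts 6 rose and 13 fell, beside 25.9% and 22.9% of all tested genes. Inmt, a methyltransferase of these cells, fell from 1043, 1253 and 1190 to 410.1, 203 and 281. Npnt, nephronectin, fell from 1013, 1003 and 1189 to 617, 619 and 586 and Tcf21, their transcription factor, from 81.0, 84.7 and 97.6 to 63.7, 56.7 and 62.5. Adventitial fibroblast genes rose in 9 of 20 cases and fell in 1, beside the same shares. Cd34 rose from 209, 220.4 and 199 to 426, 380.2 and 407, and Pi16 stood at 27.3, 26.8 and 29.2 and 15.5, 24.7 and 19.5 (edgeR adjusted p = 0.0867).

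Contractile genes rose in 11 of 20 cases and fell in 2, beside 25.9% and 22.9% of all tested genes. Tagln rose from 203, 188 and 176 CPM to 336, 299.8 and 320.5 and Myl9 from 70.9, 83.0 and 63.0 to 113, 119 and 128, both present in myofibroblasts as well as smooth muscle. Genes of fully differentiated smooth muscle did not pass: Myh11 stood at 142, 122 and 112 and 114, 116 and 113 (edgeR adjusted p = 0.519) and Cnn1 at 45.8, 40.04 and 26.4 and 21.4, 28.1 and 24.5 (edgeR adjusted p = 0.111). Msln, a mesothelial surface protein, rose from 104, 111 and 92.5 to 455, 449 and 446 (log2 2.14 ± 0.19 SE, edgeR adjusted p = 2.94e-06). Wt1, the mesothelial transcription factor, measured 5.94, 5.005 and 4.51 and 5.94, 5.995 and 5.24 (edgeR adjusted p = 0.59), and Upk3b measured 90.2, 87.5 and 77.9 and 93.0, 60.4 and 72.7.

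In the epithelium, most genes of injured, transitional alveolar cells rose and most genes of type 2 cells fell. Transitional cells arise when type 2 cells begin to replace lost type 1 cells. Of 26 transitional genes 23 rose and 1 fell (median 1.07). Cldn4, a claudin of such cells, rose from 5.55, 4.26 and 4.84 CPM to 47.5, 69.1 and 41.3, 10.8-fold (log2 3.43 ± 0.31, edgeR adjusted p = 3.99e-06). Krt8 rose from 209.7, 222 and 176 to 346, 405 and 318, Sfn from 47.4, 43.0 and 35.0 to 91.7, 117 and 80.9 and Sprr1a from 1.58, 2.84 and 1.73 to 10.01, 10.7 and 5.73. Lcn2, an iron-trapping protein of injured epithelium, rose from 100, 119 and 92.5 to 412, 312 and 310.4. Of 28 type 2 genes 3 rose and 19 fell. Sftpa1 fell from 3316, 3871 and 3360 to 1847, 1816 and 1491 and Lamp3 from 504, 527 and 469.8 to 293, 316 and 309. The other surfactant collectin, Sftpd, stood at 759.6, 956 and 759.7 and 862, 786 and 746 (edgeR adjusted p = 0.697), and the lipid enzymes Scd1 and Fasn also missed the threshold.

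Of 21 type 1 genes 2 rose and 8 fell, beside 25.9% and 22.9% of all tested genes. Hopx fell from 796, 898 and 811 CPM to 509, 525 and 481 and Rtkn2 from 219.8, 208 and 234 to 103, 106 and 107, whereas Pdpn rose from 163, 167 and 151 to 256, 261 and 239.6 and Aqp5 stood at 298, 378 and 328 and 329, 368 and 318 (edgeR adjusted p = 0.909). Of 17 tested genes of alveolar fluid and ion transport 3 rose and 4 fell, beside the same shares. Scnn1a of the epithelial sodium channel rose from 435, 485 and 479.9 to 764, 845 and 624, Scnn1b fell from 145, 156 and 154 to 114, 116 and 101, and Cftr fell from 12.9, 11.2 and 14.2 to 4.51, 7.03 and 4.80.

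Airway genes split by cell type. Among 22 club and mucous genes 10 fell and 2 rose, the latter 6 without saline replicate 1 and 4 without 4-week paraquat replicate 3. The club cell genes Cbr2, a carbonyl reductase, from 3060, 3527 and 2727 CPM to 738, 629.8 and 532, and Aldh1a1, from 1313, 1176 and 1117 to 510.1, 517 and 517, fell with Scgb1a1 and Cyp2f2. Mucous and glandular genes varied between replicates of a group. Muc5b measured 115, 18.5 and 28.6 after saline and 14.1, 126 and 31.6 after paraquat, and Scgb3a1 99.8, 9.78 and 15.7 and 42.3, 324 and 168. Both were high in saline replicate 1 and paraquat replicate 2. Scgb3a2, which club cells share with the distal airway, measured 584, 460.4 and 349 and 199.5, 374 and 254 and did not pass (edgeR adjusted p = 0.0692). Of 25 ciliated genes 6 fell (24%) and 0 rose (median log2 -0.55), beside 22.9% and 25.9% of all tested genes. The share that fell was thus near that of all genes. The count that fell was 1 without saline replicate 1 or paraquat replicate 1 and 3 without paraquat replicate 3. It was 13 with the 1-week libraries alone in the fit and 13 without 4-week paraquat replicate 3. Foxj1, their transcription factor, stood at 102, 102 and 66.8 and 64.0, 89.2 and 73.5 (edgeR adjusted p = 0.446).

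Endothelial genes fell more often than genes in general. Of 25 identity genes 18 fell and 2 rose (median log2 -0.58), and of 23 capillary genes 13 fell and 2 rose (median -0.63). In the 2 fits split by Myh6, each with a single library in 1 arm, the medians of the identity genes were -0.45 and -0.47. Pecam1 fell from 926, 926 and 988 CPM to 684, 556 and 655 and S1pr1 from 601, 541 and 550.1 to 322, 255 and 317. Markers of the aerocyte, the thin capillary cell of gas exchange, fell: Ednrb from 101, 87.6 and 100.1 to 44.9, 34.9 and 32.8, Fibin from 76.9, 79.0 and 90.0 to 32.5, 24.5 and 31.5 and Apln from 92.0, 97.0 and 98.2 to 24.2, 29.6 and 34.2. Aplnr, the receptor on general capillary cells, stood at 57.8, 74.9 and 65.2 and 67.6, 67.6 and 84.9 (edgeR adjusted p = 0.26). The list of arterial, venous, systemic and lymphatic genes went the other way, 13 of 24 up and 4 down. Ackr1, a decoy chemokine receptor of venules, rose from 0.509, 0.455 and 0.334 to 4.40, 4.91 and 5.62, 11.3-fold (log2 3.50 ± 0.34 SE, edgeR adjusted p = 6.03e-06). Gja4, an arterial connexin, rose from 58.1, 70.3 and 69.8 to 106, 117 and 119, and Prox1, the lymphatic regulator, from 1.02, 0.739 and 1.84 to 2.64, 4.74 and 3.27. Sele, E-selectin, fell from 2.83, 3.01 and 2.67 to 0.825, 0.654 and 0.545.

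Vasoactive genes fell in 14 of 33 cases and rose in 9, beside 22.9% and 25.9% of all tested genes. Npr3, the clearance receptor for natriuretic peptides, fell from 379.9, 392.4 and 411 CPM to 79.8, 71.5 and 72.3, 5.29-fold (log2 -2.40 ± 0.32 SE, edgeR adjusted p = 7.41e-05). Ace, which makes angiotensin II, stood at 1591, 1612 and 1841 and 1806, 1638 and 1538 (edgeR adjusted p = 0.891). The inducible nitric oxide synthase Nos2 rose from 5.04, 5.52 and 4.51 to 13.7, 13.7 and 14.6. In coagulation, 15 of 31 genes rose and 4 fell, beside 25.9% and 22.9% of all tested genes. Tissue factor F3, which starts clotting, rose from 67.3, 44.0 and 47.7 to 93.4, 109.6 and 102, and thrombomodulin Thbd, which restrains it on endothelium, fell from 1278, 1272 and 1436 to 562, 564 and 711. Among prostaglandin and leukotriene genes 12 of 25 rose and 5 fell, beside the same shares. The count that fell was 2 without saline replicate 3 or paraquat replicate 2 and 3 without saline replicate 1 or paraquat replicate 3. Ptgs1, cyclooxygenase 1, rose from 82.2, 88.7 and 85.4 to 203, 210.1 and 199, and the inducible Ptgs2 stood at 17.5, 16.3 and 10.1 and 10.9, 16.2 and 12.1 (edgeR adjusted p = 0.666). Ptges, the synthase of prostaglandin E2, rose from 26.3, 27.5 and 26.9 to 63.2, 66.4 and 61.5, and Ptgfr, the receptor for prostaglandin F, fell from 11.8, 10.01 and 10.6 to 2.37, 3.32 and 3.27.

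Macrophage genes rose. Lipid-associated and scavenger macrophages clear debris and gather in fibrotic lung. Of 42 of their genes 32 rose and 3 fell (median log2 1.27). Trem2, a lipid-sensing receptor, rose from 3.40, 3.13 and 4.12 CPM to 51.9, 38.5 and 40.4, 12.3-fold (log2 3.62 ± 0.20 SE, edgeR adjusted p = 1.12e-07). Marco and Mrc1, scavenger receptors, rose from 9.11, 8.53 and 8.13 to 88.4, 109 and 90.9 and from 51.5, 47.1 and 49.0 to 167, 179 and 179. Retnla and Chil3, secreted under type 2 cytokines, rose from 45.2, 35.2 and 25.4 to 604, 459 and 459 and from 295, 295 and 299 to 1157, 1573 and 1184. The complement starter C1qa rose from 57.8, 61.7 and 41.6 to 243, 178 and 197, and Vsig4, a complement receptor of resident macrophages, from 0.226, 0 and 0.0557 to 6.44, 3.38 and 4.42. Cd36, a fatty acid receptor abundant also in lung endothelium, fell from 1120, 1096 and 1084 to 628, 657 and 674.

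Resident alveolar macrophage genes were divided, 7 of 18 up and 5 down, beside 25.9% and 22.9% of all tested genes. Without any 1 of saline replicates 1 and 3 and paraquat replicates 1 and 3, 3 genes of these macrophages were down. Siglecf, their surface marker, stood at 7.81, 10.5 and 8.86 CPM and 4.35, 11.4 and 7.69 (edgeR adjusted p = 0.622), Siglec1 rose from 7.24, 6.94 and 9.02 to 35.0, 44.7 and 33.5, and Krt79 fell from 10.9, 22.5 and 13.3 to 1.65, 5.72 and 3.60. Lysosomal genes, which macrophages carry at high levels, rose in 25 of 30 cases and fell in 0 (median 0.67). Ctsd rose from 536, 615 and 588 to 1583, 1771 and 1631 and Lipa, the acid lipase, from 77.2, 80.1 and 87.9 to 147, 170.0 and 145. The macrophage growth factor Csf1, at 78.0, 70.2 and 74.2 and 92.9, 74.8 and 86.6, and its receptor Csf1r, at 150.5, 143 and 177 and 188, 158 and 163, missed the threshold.

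Chemokine ligands and receptors went different ways. Of 33 ligands 15 rose and 5 fell, and of 21 receptors 3 rose and 9 fell. The monocyte attractant Ccl7 rose from 0.905, 0.682 and 0.835 CPM to 11.8, 6.38 and 9.98 (log2 3.53 ± 0.44 SE, edgeR adjusted p = 4.48e-05), Ccl8 from 2.83, 2.05 and 1.504 to 15.9, 11.6 and 15.5 and Ccl12 from 0.736, 0.796 and 1.504 to 4.90, 2.67 and 3.82. Ccr2, the receptor of Ccl7 and Ccl12, measured 82.0, 34.1 and 101 after saline and 33.9, 38.7 and 42.7 after paraquat. Saline replicate 2 lay within the paraquat range, and the fall of Ccr2 (log2 -0.91 ± 0.29) passed with all libraries but not without saline replicate 1 (edgeR log2 -0.80, adjusted p = 0.069), saline replicate 3 (-0.59, adjusted p = 0.113), paraquat replicate 1 (-0.83, adjusted p = 0.0692) or paraquat replicate 2 (-0.92, adjusted p = 0.0511). The stromal ligand Cxcl12 rose from 212, 223 and 224 to 405, 384 and 472, while its receptor Cxcr4 fell from 66.9, 65.4 and 68.8 to 44.5, 41.1 and 40.5. Ccl5 of T and NK cells fell from 68.6, 81.5 and 56.2 to 20.4, 21.3 and 21.4. Among interleukins and their receptors 10 of 37 rose and 13 fell, beside 25.9% and 22.9% of all tested genes. The IL-6 family ligands Lif, from 4.58, 3.58 and 4.90 to 18.0, 27.1 and 20.5, Il6, from 0.226, 0.171 and 0.111 to 0.77, 1.47 and 0.763, and Il11, from 1.87, 1.48 and 1.89 to 3.91, 5.45 and 4.31, rose. Il33, an epithelial and stromal alarmin, rose from 86.7, 97.6 and 79.7 to 141, 115 and 161, and Il1b fell from 14.3, 9.10 and 25.2 to 4.90, 5.45 and 6.22.

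Most lymphocyte genes fell. All 20 tested NK and cytotoxic genes fell (median log2 -2.38), as did 17 of 18 B cell genes (median -2.07) and 23 of 27 T cell genes (median -1.01), beside 22.9% of all tested genes. In the libraries high in Myh6, 17 NK, 14 B and 10 T cell genes fell, and in the others 17, 14 and 9. Each of these fits has a single library in 1 arm. The list medians in them were -2.38 and -2.06 for NK, -1.90 and -2.15 for B and -1.003 and -1.15 for T cell genes. Ncr1, the NK receptor NKp46, fell from 4.30, 4.95 and 5.85 CPM to 0.55, 0.218 and 0.6 (log2 -3.44 ± 0.27 SE, edgeR adjusted p = 1.37e-06), and Prf1, perforin, from 12.3, 12.4 and 13.4 to 1.43, 2.07 and 2.40. Cd79a, of the B cell receptor complex, fell from 35.6, 41.5 and 44.1 to 7.32, 7.52 and 8.23 (log2 -2.39 ± 0.30, edgeR adjusted p = 4.40e-05). Cd8a of T cells fell from 14.9, 17.9 and 15.3 to 7.43, 7.36 and 7.53 and Lck, the kinase of the T cell receptor, from 28.7, 32.4 and 27.2 to 9.90, 9.16 and 11.6. The groups did not overlap for any of these 5 genes. MHC class II genes fell in 10 of 11 cases, with H2-Aa going from 448, 489 and 392.2 to 226, 244 and 277, and the exception was the protease Ctss, which rose from 164, 154 and 176 to 385, 443 and 431.

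Of 20 dendritic cell genes 12 fell and 5 rose. Cd209a of monocyte-derived dendritic cells fell from 12.2, 12.8 and 13.2 CPM to 1.76, 1.31 and 1.2, and Xcr1 of cross-presenting cells from 3.68, 4.32 and 3.79 to 2.2, 2.18 and 2.07. Of 17 monocyte genes 7 fell and 3 rose, beside 22.9% and 25.9% of all tested genes. The summed level of the monocyte list was 2726 to 3511 CPM after saline and 7302 to 8671 after paraquat, although its median log2 difference was -0.57. A sum follows the most abundant members, so it does not show a rise of the list. The mean log2 level over members, relative to the saline mean, was -0.324 to 0.226 after saline and -0.476 to -0.171 after paraquat. Of 19 neutrophil genes 8 fell and 1 rose, beside the same shares. Cd177, best known on neutrophils, was not in that list and rose (log2 4.86). The highest log2 difference was 2.85 in the monocyte list and 2.14 in the neutrophil list. Without saline replicate 3, 5 neutrophil genes fell, and with the 1-week libraries alone 3 rose. S100a9, a neutrophil protein, measured 83.2, 57.3 and 123 after saline and 51.5, 23.1 and 51.8 after paraquat (edgeR adjusted p = 0.127), and Ly6c2, of classical monocytes, 28.8, 15.6 and 31.2 and 12.6, 13.1 and 9.22 (edgeR adjusted p = 0.0884). Csf3r, the granulocyte growth factor receptor, fell from 79.3, 51.9 and 139 to 33.9, 26.5 and 35.1. Interferon-induced genes fell in 16 of 35 cases and rose in 0 (median log2 -0.58). With the 1-week libraries alone in the fit 29 fell and 2 rose, and without 4-week paraquat replicate 3, 27 fell and 2 rose. In the fits split by Myh6, each with a single library in 1 arm, 6 and 1 fell at medians of -0.59 and -0.62. The GTPase Gbp7 fell from 83.9, 56.1 and 64.4 to 36.2, 35.9 and 43.2, while Isg15 stood at 12.2, 12.4 and 13.4 and 9.68, 8.18 and 10.1 (edgeR adjusted p = 0.383).

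**Figure D4:**
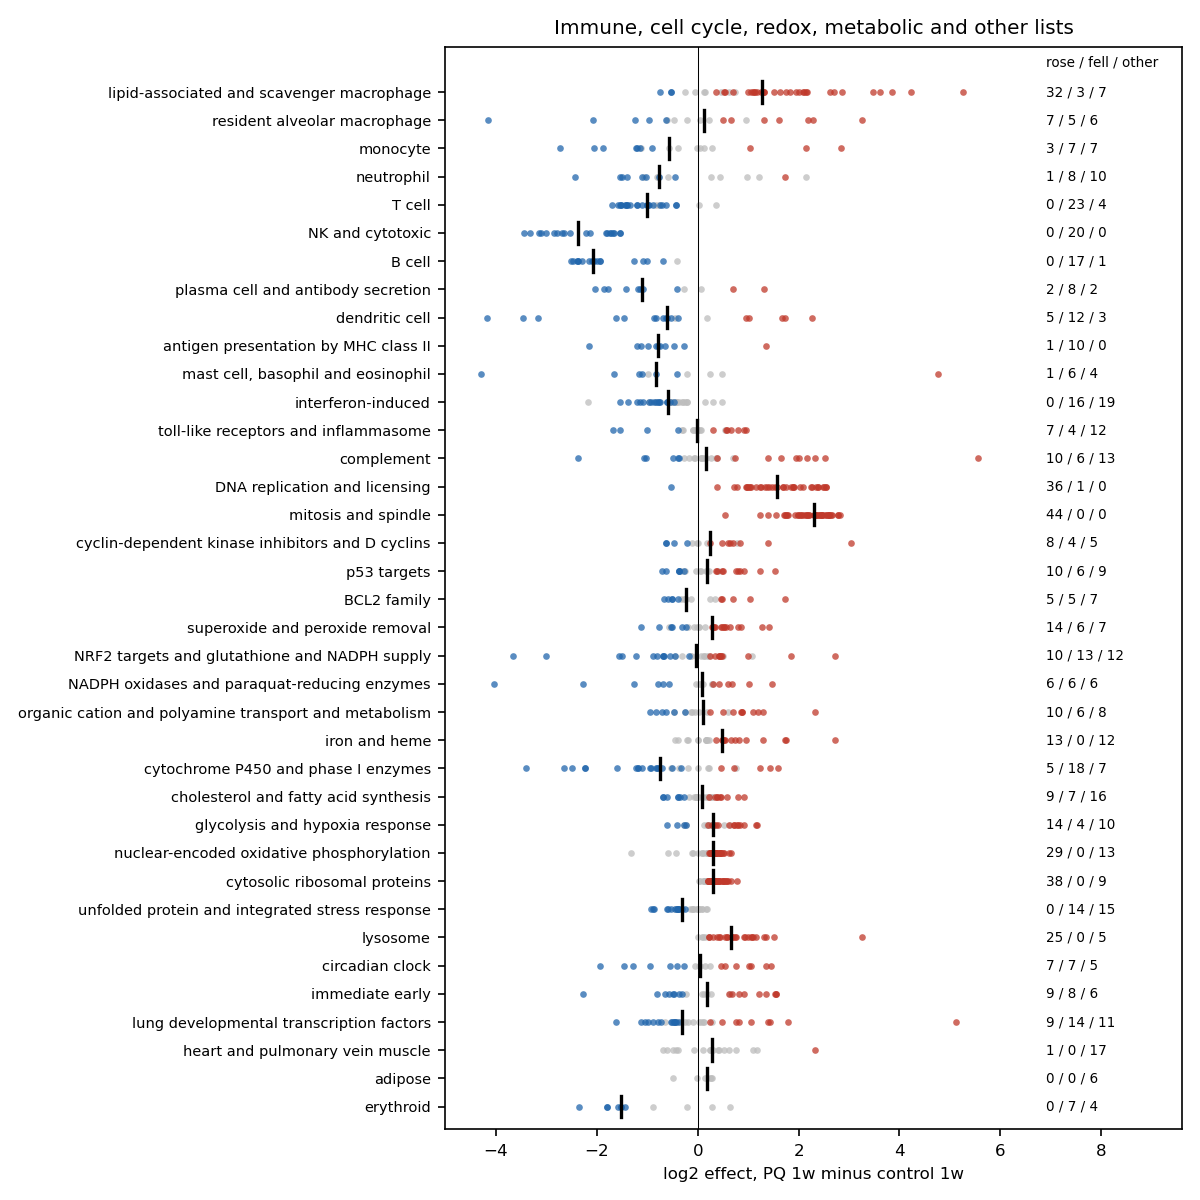
Log2 difference, paraquat minus saline, of each tested gene in the immune, cell cycle, redox, metabolic and remaining lists, with red points risen, blue fallen and grey past neither, a black bar at the median and the 3 counts at the right. NK and B cell genes lie mostly to the left of 0, mitosis genes to the right, and P450 genes mostly to the left.

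Nearly all cell division genes rose. Mitotic genes rose in 44 of 44 cases (median log2 2.31) and replication genes in 36 of 37 (median 1.57), beside 25.9% of all tested genes. Cdk1, the kinase that starts mitosis, rose from 6.68, 8.47 and 4.90 CPM to 44.9, 43.0 and 49.6 (log2 2.78 ± 0.18 SE, edgeR adjusted p = 2.93e-07). Ccnb2, a cyclin that activates it, rose from 4.70, 6.71 and 5.46 to 34.4, 33.4 and 38.5, and Ube2c, an enzyme that marks cyclins for destruction, from 7.64, 13.3 and 7.30 to 37.3, 41.2 and 48.6. Mcm5 and Mcm6, subunits of the replicative helicase, rose from 16.0, 15.2 and 14.9 to 56.4, 53.5 and 63.0 and from 37.0, 35.1 and 30.0 to 79.2, 78.8 and 81.9. The replication gene that fell was E2f2, from 49.9, 52.4 and 57.0 to 39.9, 34.9 and 35.9. Among cell cycle inhibitors, Cdkn2c rose from 18.7, 20.8 and 18.4 to 51.2, 48.8 and 52.4 and Cdkn1b, p27, fell from 80.6, 73.7 and 79.4 to 51.0, 47.9 and 52.7. Targets of p53 rose in 10 of 25 cases and fell in 6, beside 25.9% and 22.9% of all tested genes. Eda2r rose from 3.28, 2.90 and 3.40 to 8.42, 9.43 and 9.98, and Mdm2 stood at 83.3, 73.8 and 75.9 and 76.4, 83.4 and 83.2 (edgeR adjusted p = 0.472). In the BCL2 family 5 of 17 rose and 5 fell, both shares near the background. The pro-apoptotic Bax rose from 53.4, 59.0 and 55.5 to 78.0, 77.3 and 79.0, and Bcl2l11 fell from 56.1, 49.5 and 53.1 to 31.1, 35.4 and 33.3.

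Promoters of 3 mitotic and 2 replication genes are shown, from lists that rose almost whole. Each printed promoter holds the motifs marked in its group, which many promoters of the same lists lack. The printed promoters are therefore not typical of their lists. The sequences are the 250 bases before the annotated transcription start on the gene's own strand, from RefSeq, build GRCm38.p6. For the mitotic genes, capitals mark CCAAT (the NF-Y box) and TTTGAA (the core of the cell cycle homology element), and for the replication genes TTTCGCG or TTTGGCG (E2F sites), on either strand and merged where matches overlap. The windows are chr10:69352913-69353162 on the minus strand for Cdk1, chr9:70421555-70421804 (minus) for Ccnb2, chr2:164769679-164769928 (plus) for Ube2c, chr8:75109259-75109508 (plus) for Mcm5 and chr1:128359706-128359955 (minus) for Mcm6.
Cdk1: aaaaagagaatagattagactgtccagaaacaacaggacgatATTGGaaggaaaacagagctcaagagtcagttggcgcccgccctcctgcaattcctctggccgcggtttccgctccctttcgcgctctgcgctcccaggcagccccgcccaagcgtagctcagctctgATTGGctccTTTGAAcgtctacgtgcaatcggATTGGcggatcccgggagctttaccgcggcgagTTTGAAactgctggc
Ccnb2: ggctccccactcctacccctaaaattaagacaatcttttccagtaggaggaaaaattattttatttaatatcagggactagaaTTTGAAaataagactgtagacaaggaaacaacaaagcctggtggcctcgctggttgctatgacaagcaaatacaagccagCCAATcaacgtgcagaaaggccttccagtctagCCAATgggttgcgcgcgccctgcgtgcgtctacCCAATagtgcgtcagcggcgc
Ube2c: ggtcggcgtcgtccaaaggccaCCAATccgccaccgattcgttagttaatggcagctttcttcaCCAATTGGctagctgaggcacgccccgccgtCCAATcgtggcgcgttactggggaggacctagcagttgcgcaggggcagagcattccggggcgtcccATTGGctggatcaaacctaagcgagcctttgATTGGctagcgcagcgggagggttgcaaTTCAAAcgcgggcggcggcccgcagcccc
Mcm5: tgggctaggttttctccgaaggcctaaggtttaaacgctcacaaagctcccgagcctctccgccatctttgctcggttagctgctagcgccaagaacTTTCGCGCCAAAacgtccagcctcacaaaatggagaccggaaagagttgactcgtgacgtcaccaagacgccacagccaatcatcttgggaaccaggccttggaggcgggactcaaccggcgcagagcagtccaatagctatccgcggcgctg
Mcm6: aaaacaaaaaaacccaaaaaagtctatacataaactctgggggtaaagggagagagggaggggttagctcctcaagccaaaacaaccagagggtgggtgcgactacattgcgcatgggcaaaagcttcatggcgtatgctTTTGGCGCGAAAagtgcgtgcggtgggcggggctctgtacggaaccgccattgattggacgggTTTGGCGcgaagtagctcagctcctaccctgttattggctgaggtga
Of the 250-base windows that the RefSeq table holds, 34.5% contained CCAAT on either strand, and so did 26 of 36 mitotic promoters (72.2%) and 20 of 31 replication promoters (64.5%). TTTGAA was in 16.3% of all promoters, 11 of the 36 mitotic ones (30.6%) and 3 of the 31 replication ones (9.68%). TTTCGCG or TTTGGCG was in 1.96% of all promoters, 2 of the mitotic ones (5.56%) and 6 of the replication ones (19.4%). Among promoters of tested genes the 3 shares were 35.6%, 11.2% and 3.29%. A match is a description of the letters and not a bound site, and no binding was measured here.

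Enzymes known to reduce paraquat or to make oxidants rose in 6 of 18 cases and fell in 6, beside 25.9% and 22.9% of all tested genes. Por, the P450 reductase that passes electrons from NADPH to paraquat, fell from 307, 305 and 334 CPM to 201, 183 and 165 (log2 -0.79 ± 0.14 SE, edgeR adjusted p = 7.99e-04), and Xdh, xanthine dehydrogenase, from 506, 367 and 529 to 322, 276 and 269. Cyb5r3, cytochrome b5 reductase, rose from 339, 387 and 368 to 602, 542 and 527, and Txnrd1, thioredoxin reductase, from 115, 97.4 and 98.6 to 154, 140.1 and 138. Of the NADPH oxidases, Nox4 of fibroblasts and endothelium rose from 71.2, 67.5 and 69.6 to 86.7, 83.2 and 88.6, Cybb of phagocytes stood at 77.7, 52.7 and 97.2 and 82.2, 101 and 92.4 (edgeR adjusted p = 0.342), and Nox1 fell from 0.905, 1.48 and 1.504 to 0.055, 0.0545 and 0.109. In polyamine and organic cation handling, 10 of 24 rose and 6 fell, beside 25.9% and 22.9% of all tested genes. Spermidine synthase Srm rose from 19.02, 19.9 and 21.1 to 40.7, 34.0 and 34.7 and spermine synthase Sms fell from 42.0, 43.9 and 34.2 to 22.2, 25.8 and 26.0. The carnitine and cation transporter Slc22a5 fell from 53.2, 57.2 and 52.3 to 29.5, 27.5 and 27.8, the polyamine pump Atp13a3 stood at 258, 203 and 239.8 and 201, 238 and 207 (edgeR adjusted p = 0.328), and the drug efflux pump Abcb1b rose from 7.58, 5.74 and 7.02 to 18.1, 16.2 and 15.9.

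Superoxide dismutases fell or missed the threshold, and enzymes that remove peroxide went both ways. Sod1, the cytosolic superoxide dismutase, fell from 314, 349 and 285 CPM to 239, 209 and 206, and the extracellular Sod3 from 501, 611 and 564 to 439, 351 and 385. The mitochondrial Sod2 stood at 83.9, 84.1 and 81.5 and 84.8, 79.6 and 83.6 (log2 -0.0089 ± 0.059 SE, edgeR adjusted p = 0.914). For hydrogen peroxide, catalase (Cat) and Prdx6 fell, Prdx6 from 1191, 1225 and 1126 to 732, 732 and 631. Prdx1 rose from 279, 293 and 248 to 407, 380.2 and 398, Prdx4 of the endoplasmic reticulum from 26.8, 29.6 and 24.4 to 67.5, 61.8 and 67.0, and Gpx1 from 179.6, 217 and 204 to 289.5, 254 and 282. Over the list, 14 of 27 rose and 6 fell, beside 25.9% and 22.9% of all tested genes.

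NRF2 is the transcription factor that answers electrophiles and oxidants. Of 35 NRF2 target, glutathione and NADPH genes 10 rose (28.6%) and 13 fell (37.1%), beside 25.9% and 22.9% of all tested genes. The median log2 difference was -0.029. Slc7a11, the cystine importer, rose from 2.94, 1.71 and 2.28 CPM to 9.90, 7.58 and 7.58, Srxn1, sulfiredoxin, from 36.7, 29.6 and 28.9 to 55.3, 48.7 and 44.1, and Gclm, the modifier subunit of glutathione synthesis, from 37.1, 31.9 and 31.4 to 50.4, 41.1 and 42.8. The catalytic subunit Gclc stood at 286, 242 and 229 and 260.1, 274 and 254 (edgeR adjusted p = 0.606). Nqo1, a classical NRF2 target, measured 5.38, 5.29 and 4.62 after saline and 9.85, 5.94 and 5.89 after paraquat, high in paraquat replicate 1 and nearer the saline values in the other two (edgeR adjusted p = 0.128). Hmox1, heme oxygenase 1, had the same order among the paraquat libraries, 326, 202 and 175 CPM, all above the saline values of 34.6, 34.2 and 37.6. The glutathione transferases of the airway fell, Gstm1 from 476, 498 and 427 to 178, 144 and 154 and Gsta3 from 137, 138 and 125 to 63.0, 37.3 and 40.2. TGACNNNGC, the core of the antioxidant response element, was in 10.1% of all 250-base promoters on either strand and in 8 of 29 promoters of this list (27.6%), among them that of Gclm, printed here because the gene rose and holds a single match (capitals, chr3:122245307-122245556, plus strand, RefSeq, GRCm38.p6).
Gclm: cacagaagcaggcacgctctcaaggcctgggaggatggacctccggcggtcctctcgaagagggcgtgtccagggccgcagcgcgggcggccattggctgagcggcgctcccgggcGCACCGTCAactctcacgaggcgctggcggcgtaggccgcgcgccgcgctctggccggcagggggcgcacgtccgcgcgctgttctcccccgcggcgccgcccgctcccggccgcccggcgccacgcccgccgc
Iron and heme genes rose in 13 of 25 cases and fell in 0. Ftl1 and Fth1, the ferritin chains, rose from 1518, 1738 and 1586 to 2824, 2612 and 2640 and from 1858, 2121 and 1846 to 2721, 2512 and 2295, the iron exporter Slc40a1 from 12.6, 12.2 and 19.9 to 31.1, 44.5 and 34.2, and the transferrin receptor Tfrc stood at 58.5, 53.5 and 51.7 and 47.5, 55.4 and 61.1 (edgeR adjusted p = 0.991).

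Phase I genes mostly fell, and genes of the ribosome and of respiration rose slightly. Cytochrome P450 and other phase I genes fell in 18 of 30 cases and rose in 5 (median log2 -0.74). Cyp4b1 fell from 654, 683 and 679.9 CPM to 167, 136 and 126, Cyp2b10 from 249, 263 and 270.3 to 132, 114 and 118, and the flavin monooxygenase Fmo1 from 302, 319.7 and 312 to 143, 132 and 134. Genes of the cytosolic ribosome rose in 38 of 47 cases and those of oxidative phosphorylation in 29 of 42, and none of either list fell. The changes were small, with medians of 0.30 and 0.29. Rplp0 rose from 735, 779 and 745 to 1249, 1140 and 1162 and Cox4i1 from 172, 208 and 194 to 273, 244 and 265. In glycolysis and the hypoxia response 14 of 28 rose and 4 fell, beside 25.9% and 22.9% of all tested genes. Eno1 went from 172, 170.4 and 182 to 348, 430.4 and 411. Genes of the unfolded protein response fell in 14 of 29 cases and rose in 0. Hspa5, the main chaperone of the endoplasmic reticulum, fell from 775, 784 and 723 to 554, 603 and 587, and Ddit3 (CHOP) from 29.1, 31.7 and 27.5 to 16.1, 14.4 and 17.1.

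Transcription factors of the lung and the clock went both ways. Of 34 developmental factors 9 rose (26.5%) and 14 fell (41.2%), beside 25.9% and 22.9% of all tested genes. Hmga2, an embryonic chromatin protein, rose from 0.113, 0.114 and 0.111 CPM to 1.1, 6.76 and 4.69 and Sox4, of developing tissues, from 38.5, 43.2 and 44.2 to 76.5, 77.4 and 67.9. Nkx2-1, which maintains lung epithelium, fell from 228, 246 and 229 to 165, 180.1 and 161, and Foxf1, of lung mesenchyme and endothelium, from 281, 267 and 316 to 169.6, 145 and 155. Of 19 clock genes 7 rose and 7 fell, beside the same shares of all tested genes. Arntl (BMAL1), which drives the clock, fell from 31.5, 36.6 and 35.0 to 15.7, 16.4 and 10.5, Npas2 from 14.2, 15.9 and 12.6 to 4.29, 4.25 and 2.62 and Nr1d1 from 173, 146 and 209 to 74.6, 59.0 and 58.1, while Dbp rose from 12.4, 7.62 and 12.03 to 26.0, 29.3 and 32.2 and Per3 from 29.0, 25.8 and 27.9 to 54.7, 53.2 and 59.1. The hour at which each lung was taken is not in the labels used here, so a difference in collection hour was not tested. Among immediate early genes 9 of 23 rose and 8 fell, again beside those shares. Egr1 rose from 43.0, 27.2 and 31.8 to 72.3, 154 and 73.6, highest in paraquat replicate 2. Myc rose from 10.3, 9.84 and 10.5 to 27.6, 24.2 and 26.8, and Jun fell from 328, 349.9 and 354 to 226, 205 and 223.

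**Figure D5:**
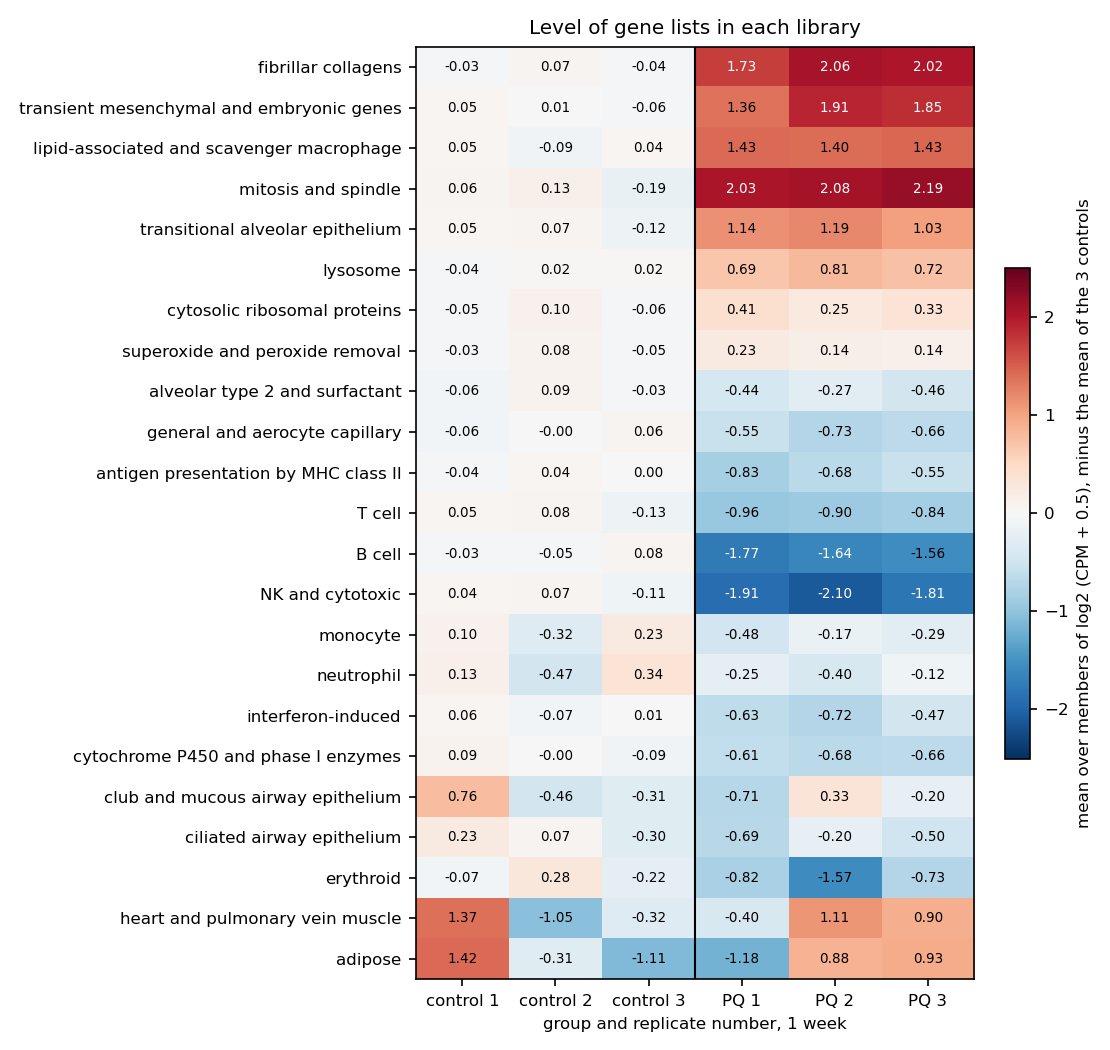
Level of 23 gene lists in each library, as the mean over members of log2 (CPM plus 0.5) minus the mean of the 3 saline libraries, printed in each cell and coloured from blue (lower) to red (higher). The upper rows separate the groups. The heart and fat rows are highest in saline 1 and paraquat 2 and 3, and the airway row in saline 1.

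Whole lists were also summarised in each library. The fibrillar collagen level was 1.73, 2.06 and 2.02 in the paraquat libraries, and the mitosis level 2.03, 2.08 and 2.19, on the log2 scale above the saline mean. The NK level was -1.91, -2.10 and -1.81 and the capillary level -0.55, -0.73 and -0.66. For the heart list the saline libraries stood at 1.37, -1.05 and -0.32 and the paraquat libraries at -0.40, 1.11 and 0.90, and the replicates of each group spread more widely than the group means differed.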

How the data were processed

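Whole-lung RNA of 12 libraries had been aligned and counted by the authors. The submitters' processing notes name HISAT, RSEM 1.2.12 and mm10. The deposited tables give 1 expected count per gene and library, an estimate that shares reads between transcripts and near-identical genes (69.7% were whole numbers), and FPKM values that the authors normalised for length and depth. Expected counts were rounded and tested with edgeR 4.0.16 (quasi-likelihood F-test, TMM scaling, R 4.3.3). The fit held all 12 libraries as 4 group means, so that the 4-week groups add to the estimate of spread. The 4-week paraquat replicate 3 stood apart (chi-square per degree of freedom 32.2 and 34.4 against its replicates, which had 16.15 between them). Genes passed edgeR's filter at a minimum count of 10 and total of 15, and calls used a Benjamini-Hochberg adjusted p under 0.05. SE values are the log2 difference divided by the square root of F. FPKM served for limma 3.58.1 as an alternative, on log2 of FPKM plus 1 or plus 0.1, and DESeq2 1.42.0 was another. A count simulation with known changes was used to test the script.

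Gene symbols came from the deposited tables, and 27 that had been turned into dates were restored from the gene numbers. Coordinates and promoters came from RefSeq (GRCm38.p6), matching 20718 genes. The 79 gene lists matched 1883 symbols, with 9 unmatched. The lists, and the comparison itself, were chosen with earlier results of these data known, and no list was tested. Genes were named by rule: the 8 largest rises and 8 largest falls among called genes with a mean of at least 10 CPM over the 6 1-week libraries and no overlap between groups, the 8 largest gains and losses in mean CPM, and, for each list, marked members and those with the largest rise and fall. Other list members and all genes outside the lists were chosen after their values were seen. Some genes that the rule names are not reported here. Replicates of the 1-week groups differed by more than counting noise (the same measure from 8.09 to 14.5), so none was merged. Intervals and floors cover counting error only.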

Additional observations from a re-analysis of the deposited data

How the results depend on the processing

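No named gene that passed in the main fit or in an alternative fit changed direction between them. Sign changes of genes that passed in neither were not counted. A test of changes beyond 2-fold (glmTreat) left 763 genes, 551 higher and 212 lower. In that test 121 of the 248 called named genes missed the threshold. Requiring 5 CPM in at least 3 libraries left 1264 genes past 2-fold, and limma on log2(FPKM + 1) left 945. With at least 50 CPM of Myh6 (chosen after seeing the data), 4164 genes passed, 2355 higher and 1809 lower, and with less Myh6 3716 passed, 2248 higher and 1468 lower. These fits hold 3 of the 6 libraries, and 31 and 41 of the 248 called named genes missed the threshold in them. Leaving out each of the 6 1-week libraries in turn gave 6704 to 7197 passing genes, and 2 called named genes, Ccr2 and Hba-a1, were lost in at least 1 such fit. The replicate number did not pair libraries: deviations from the group means correlated at -0.35, -0.214 and -0.0739 for equal numbers. With a replicate block 6793 genes passed, and no called named gene was lost. Without 4-week paraquat replicate 3, 8264 passed, and with the 6 1-week libraries alone 7896. DESeq2 passed 7643 genes, and other scalings 7717 to 7777. Genes with few counts have wide intervals.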

Other observations

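Genes that no list held were ranked by their change after the data were seen. Among the largest rises were Cd109, a surface protein that binds TGF-beta, which went from 2.83, 2.16 and 2.23 CPM to 39.5, 32.4 and 37.5 (log2 3.92 ± 0.18 SE, edgeR adjusted p = 2.99e-08), and Adamts12, a secreted protease, from 2.55, 2.39 and 3.01 to 31.5, 45.4 and 28.7. S100a14, an epithelial calcium-binding protein, rose from 9.34, 8.99 and 7.46 to 65.8, 86.6 and 60.3. Ntrk2, the receptor of brain-derived neurotrophic factor, which lung capillary cells also carry, rose from 13.9, 17.7 and 16.0 to 71.3, 95.5 and 95.4. The imprinted genes Mest, from 9.28, 10.2 and 10.6 to 43.0, 62.4 and 74.99, and Peg3, from 17.9, 15.6 and 24.4 to 62.9, 51.7 and 69.2, rose with H19. Igf2, the imprinted neighbour of H19, stood at 12.1, 11.4 and 13.9 and 10.4, 11.01 and 9.05 (edgeR adjusted p = 0.0625), and Cdkn1c at 50.1, 54.8 and 49.4 and 54.0, 47.7 and 41.6 (edgeR adjusted p = 0.381).

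Some genes that are usually read outside the lung were near 0 after saline and counted after paraquat. Dmp1 and Dspp, matrix phosphoproteins of bone and dentin, had 2 and 1 counts over the 3 saline libraries and 126 and 54 over the 3 paraquat libraries, ratios of 61.1 (95% counting interval 16.6 to 510.0) and 52.4 (9.01 to 2106). Wnt10a, a ligand of tooth and skin development, had 2 and 101 counts, a ratio of 49.0 (13.2 to 409.9). The peptide precursors Pdyn and Cck followed: Pdyn had 1 and 71 counts, a ratio of 68.9 (11.97 to 2757). Cck had 0 after saline and 88 after paraquat, at least 28.4-fold higher when its saline group is set to 3 counts in all. Every paraquat library was above every saline library for these 5 genes, and paraquat replicate 2 was highest for each.

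Among falls outside the lists were those of Hsph1 and Hspa1b, for which the saline libraries differed widely. Hsph1, a chaperone partner of HSP70, fell from 166, 218 and 137 CPM to 34.6, 39.7 and 41.1, and Hspa1b, an inducible HSP70, from 84.2, 166 and 58.9 to 22.2, 21.5 and 22.6. Saline replicate 2 was the highest for both, and the paraquat libraries lay close together. Mapt, tau, fell from 226, 232 and 249 to 80.4, 66.7 and 77.9, and Dpep1, a dipeptidase on which neutrophils adhere in lung vessels, from 169, 203 and 199 to 77.7, 47.7 and 56.5. Lrat, which stores retinol as esters, fell from 49.3, 50.8 and 53.4 to 11.6, 11.1 and 10.1, and Klf15, a glucocorticoid-responsive factor, from 86.6, 75.2 and 81.4 to 28.4, 20.5 and 24.3.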
